A study of Mus musculus with 1 sample.

Results

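Early B-lineage and recombination genes are described here as 10 transcripts of a mouse bone marrow count table that holds 25661 genes: Dntt, Rag1, Rag2, Ebf1, Pax5, Vpreb1, Igll1, Cd79a, Cd79b and Ighm. They were chosen by name, not by their values, and each of the 10 has a row in the table. The data are 1 single-cell RNA-seq library of sorted bone marrow progenitors. Before pooling, the sorts were told apart by 5 PE-streptavidin hashtags, A961 to A965. The labels name 3 kinds of sort: progenitors that were Lin-negative and cKit-positive, GMP-MoPs and cMoPs, the last 2 being monocyte progenitor populations. The first 2 sorts came from 1 naive mouse and 1 mouse given LPS, the endotoxin of Gram-negative bacteria, and the cMoPs from 1 naive mouse. For A961, A962 and A964, 100 cells each were loaded, and for A963 and A965, 15000 each. The sources used here do not say which hashtag marked which population or mouse, nor the strain, age or sex of the mice, the LPS dose or the lineage antibodies. No hashtag is therefore given a treatment, and values are compared between hashtags only. Each hashtag occurs once, so there are no replicates, no test and no p-value, and every interval below is a 95% interval for counting error only.

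B cells are made in the bone marrow by steps that each leave a transcript. Recombination-activating proteins 1 and 2 (Rag1, Rag2) cut the immunoglobulin loci, terminal transferase (Dntt) adds untemplated nucleotides at the joints, and the factors Ebf1 and then Pax5 commit the cell. Vpreb1 and Igll1 (lambda5) form the surrogate light chain that pairs with the first mu heavy chain (Ighm), and Cd79a and Cd79b carry the signal of the assembled receptor. The transcripts of Dntt and of unrearranged Ighm are known to appear in progenitors before commitment, and low Rag expression is known in early lymphoid cells and in the plasmacytoid dendritic lineage.

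Counts of Igll1, Vpreb1 and Cd79a were concentrated in few cells, and their start regions are shown, with that of Rag1. Concentration alone does not set this choice. The 20 highest cells held 67.4% of Pax5 counts, against 59.0% for Cd79a, and the Pax5 window is not printed. Igll1, Vpreb1 and Cd79a are also the genes whose windows hold a motif capitalised below. The cells of highest Rag1 mostly lacked Igll1, which was seen in 0.940% of all cells. RefSeq windows of build GRCm38.p6 were found for 8 of the 10 genes. Igll1 (chr16:16863986-16864235, minus strand), Vpreb1 (chr16:16869256-16869505, minus strand) and Rag1 (chr2:101649533-101649782, minus strand) are printed as the 250 bases before the RefSeq start. Cd79a (chr7:24897247-24897380, plus strand) is printed as the 134 bases before its first annotated base. The Vpreb1 window lies wholly inside the longer GENCODE M21 span of that gene (chr16:16868403-16870843), so it is upstream of the RefSeq start only. Capitals mark CCCNNGGG, the core of the early B-cell factor motif, and TCAAGGG, the form of that site known from the Cd79a promoter.
Igll1: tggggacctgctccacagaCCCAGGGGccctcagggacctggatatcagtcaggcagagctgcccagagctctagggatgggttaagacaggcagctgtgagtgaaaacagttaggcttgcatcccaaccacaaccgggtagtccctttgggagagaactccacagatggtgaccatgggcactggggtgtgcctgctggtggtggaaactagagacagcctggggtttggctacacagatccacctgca
Vpreb1: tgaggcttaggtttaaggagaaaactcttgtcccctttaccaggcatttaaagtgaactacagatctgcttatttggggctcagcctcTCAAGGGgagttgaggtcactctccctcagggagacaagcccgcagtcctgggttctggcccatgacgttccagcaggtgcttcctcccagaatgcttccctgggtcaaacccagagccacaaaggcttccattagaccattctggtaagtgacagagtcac
Cd79a: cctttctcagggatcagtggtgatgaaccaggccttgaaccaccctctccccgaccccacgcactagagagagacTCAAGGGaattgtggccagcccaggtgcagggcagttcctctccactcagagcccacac
Rag1: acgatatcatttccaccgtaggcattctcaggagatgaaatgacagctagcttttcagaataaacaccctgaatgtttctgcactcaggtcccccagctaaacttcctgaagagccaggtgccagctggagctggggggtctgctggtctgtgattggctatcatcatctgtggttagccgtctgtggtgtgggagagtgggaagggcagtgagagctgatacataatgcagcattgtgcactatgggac
CCCNNGGG was found once, 231 bases upstream of the Igll1 start, and occurs in 11.8% of the 32851 RefSeq windows of 250 bases. TCAAGGG was found 162 bases upstream of the Vpreb1 RefSeq start and 175 bases upstream of the Cd79a RefSeq start, and occurs in 3.1% of windows. TCAAGGG was chosen after these sequences had been seen. Both strands were searched, and neither motif was in the Rag1, Rag2, Dntt, Pax5 or Ebf1 windows. TATAAA, found in 12.4% of windows, was in none of the 8 genes' windows. The E-box CANNTG, which overlaps neither capitalised motif here and is found in 66.2% of windows, occurred 3 times in each of the Igll1, Rag1 and Dntt windows and once in that of Vpreb1. These matches describe the letters of the windows only.

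In GENCODE M21 (GRCm38), Igll1 (chr16:16860671-16863985) and Vpreb1 (chr16:16868403-16870843) are neighbours on the minus strand, and Rag1 (chr2:101638282-101649501, minus strand) and Rag2 (chr2:101624718-101632529, plus strand) lie close together and are transcribed towards each other. Dntt is at chr19:41029275-41059525, Ebf1 at chr11:44617317-45008091 and Cd79a at chr7:24897381-24902197, each on the plus strand. Pax5 is at chr4:44524757-44710487, Cd79b at chr11:106311341-106314762 and Ighm, the mu constant region, at chr12:113418558-113422730, each on the minus strand. Vpreb1 has a close copy, Vpreb2 (chr16:17980428-17981273), whose transcript was identical at 739 of 759 aligned bases (97.4%), so counts of the 2 may have been split between them.

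In all, 10528 cells were usable. A963 and A965 gave 4716 and 5567 of them, and A961, A962 and A964 gave 68, 104 and 73, with median totals of 20430.5 to 27801 counts per cell. Xist was at 409 to 611 CPM (counts scaled to the same library sum) in A961, A962 and A963 and at 11.8 to 59.7 CPM in A964 and A965, and 4 Y-linked genes summed to 6.46 to 39.2 CPM in the first 3 and 79.5 to 86.0 CPM in the last 2. The hashtags therefore also differed in sex-linked transcripts. Kit, the marker of the sort, had a count in 23.3% of A963 and 16.3% of A965 cells. Cells were gated by marker genes of 14 classes that include none of the 10 genes, and a cell took a class only where its marker score led the next by a margin. A gate is thus a range on a score, not a cell type, and the sort, not the marrow, sets which cells could enter it.

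The lymphoid gate, which used Flt3, Il7r, Satb1, Notch1, Il12a, Lax1, Ly6d and Btla, held 368 cells (198 of A963, 166 of A965, 3 of A962 and 1 of A961). Flt3 was seen in 90.5% of them and Il7r in 61.4%, against 14.5% and 5.64% of other cells, and 51 of the 368 lay within 0.1 of a cut. The medians of summed marker counts per 10000 in this gate were 9.63 for the lymphoid, 1.17 for the B-lineage and 6.18 for the plasmacytoid dendritic markers. The pDC gate (plasmacytoid dendritic cells, 533 cells) had a higher lymphoid marker sum, 32.1, so these markers were also high outside the lymphoid gate. The B-lineage gate held 21 cells, 14 of A963 and 7 of A965. In it Vpreb3 was seen in 16 cells, Blnk in 17 and Pou2af1 in 14, and Ms4a1, the CD20 gene of later B cells, in 0 of 21, which allows a share of up to 14.3%. Neutrophil markers had similar sums, 35.4 to 41.8 per 10000, in the lymphoid, B-lineage, pDC and erythroid gates and among cells without a gate. The erythroid gate (797 cells) is used below as cells that should lack these transcripts; its cells were deep, with a median of 41384 counts against 17617.5 in the lymphoid gate, so shares are given after each cell was thinned to 8800 counts.

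Dntt marked the lymphoid gate. Its level there was 1463 CPM (1436 to 1491), and 82.9% of the 368 cells (78.6 to 86.6) had a count after thinning, or 85.9% without thinning. It was at 613 CPM in the 21 cells of the B-lineage gate, 14 of which had a count after thinning, and at 114 CPM in cells without a gate. Among the other named gates of over 30 cells the next levels were 89.1 CPM in the pDC gate and 40.9 CPM in the stem gate, with thinned shares of 26.1% and 16.0%. In the erythroid gate Dntt was at 5.21 CPM, with a count in 8 of 797 cells after thinning and in 4.27% without thinning. The lymphoid values of A963 and A965 (1288 and 1628 CPM) did not overlap those of the pDC gate (63.7 and 109), while pDC and stem values (15.3 and 65.0) overlapped. Below the stem gate, the cDC (conventional dendritic cell), megakaryocyte, erythroid, monocyte and GMP (granulocyte-monocyte progenitor) values each overlapped those of the gate above. Of the 18849 Dntt counts, 58.6% lay in the lymphoid gate and 30.5% in the 1841 cells without a gate, where 263 cells had at least 3 counts.

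**Figure D1:**
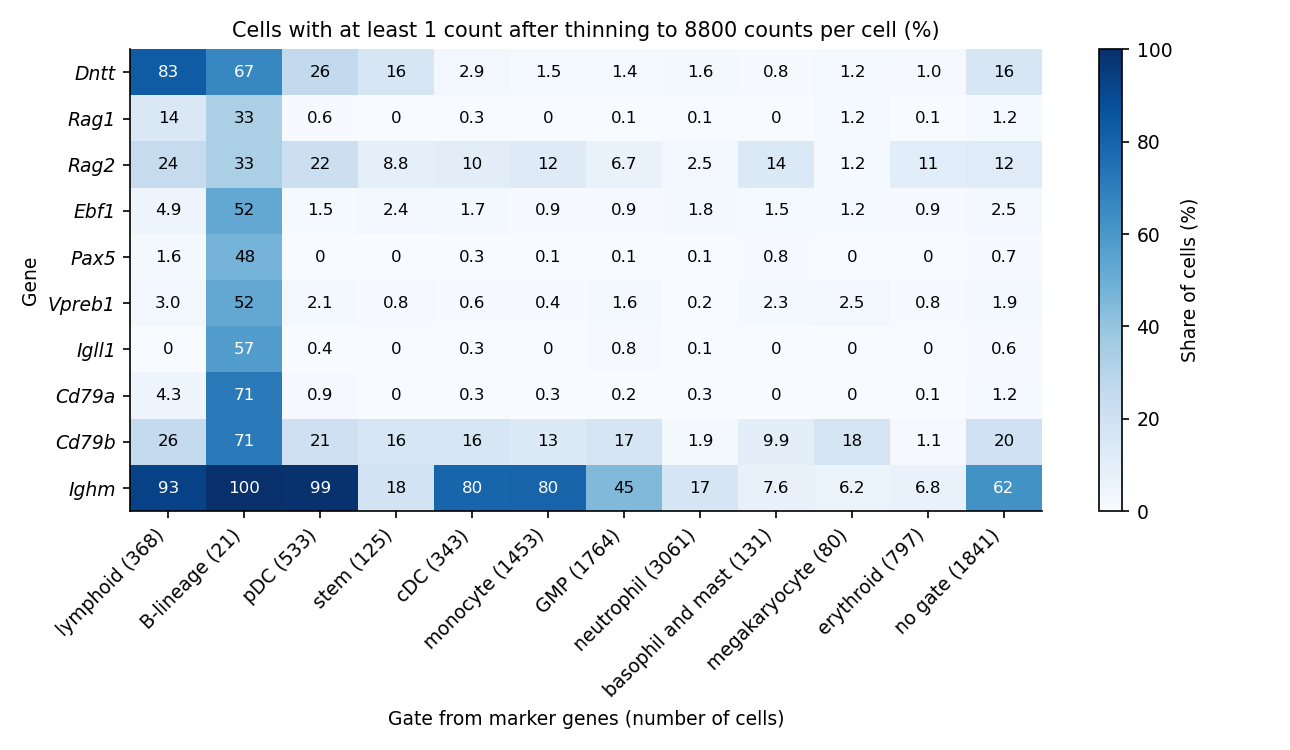
Share of cells (%) with at least 1 count after thinning to 8800 counts per cell, for each gene (rows) and gate (columns, with the number of cells). Dntt fills the lymphoid gate at 83%, Pax5 and Igll1 are at 1.63% and 0 there, and Ighm reaches 99% in the pDC gate.

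Rag1 was a rarer transcript of the same cells. It reached 34.7 CPM (30.7 to 39.2) in the lymphoid gate and 205 CPM (164 to 254) in the B-lineage gate, with thinned shares of 14.4% and 33.3%. The B-lineage value joined 262 CPM in A963 and 83.8 CPM in A965, where 1 cell held 9 of 11 counts. In the pDC gate it was at 0.558 CPM with 4 of 533 cells, in the GMP gate at 0.0940 CPM and in the neutrophil gate at 0.0422 CPM. No count was seen in the 125 cells of the stem gate, which allows a share of up to 2.40%. One megakaryocyte-gate cell held 9 counts beside 29 of Dntt. Of 590 Rag1 counts, 44.4% fell in the lymphoid gate and 14.2% in the B-lineage gate, and the 20 highest cells held 46.6%.

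Rag1 followed Dntt cell by cell. Among the 88 cells with at least 2 Rag1 counts, 83 (94.3%) had at least 2 Dntt counts, against 7.76% of all cells. In the other direction only 10.2% of the 817 cells with at least 2 Dntt counts had as many of Rag1. Cd79a was at this level in 37 of the 88 cells (42.0%), against 0.684% of all cells, and Ebf1 in 24 (27.3%), against 0.503%.

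Rag2 did not share this pattern. Among gates of over 20 cells it was highest in the B-lineage gate (87.8 CPM) and the lymphoid gate (42.3 CPM), but its thinned share was also 21.6% in the pDC, 13.7% in the basophil and mast, 12.3% in the monocyte and 10.9% in the erythroid gate. Before thinning, 38.8% of erythroid-gate cells had a Rag2 count, while 0.502% had one of Rag1. In the neutrophil gate it was at 3.35 CPM with a thinned share of 2.45% (1.93 to 3.06), below the erythroid share (8.84 to 13.3) by more than the counting error. In 78 of 139 cells with a Rag1 count (56.1%) Rag2 was seen as well, against 21.5% of the rest, or 38.8% against 8.66% after thinning.

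The Rag2 counts carry an annotation limit. The gene B230118H07Rik (chr2:101560781-101649532, minus strand) spans Rag2 and has exons inside it, 1 of them at chr2:101630341-101630548, and whether counting used the strand is not given in the sources used here. B230118H07Rik was highest in the stem and GMP gates (61.5 and 52.4 CPM), where Rag2 was at 15.2 and 8.82 CPM. Cells with a B230118H07Rik count had Rag2 in 8.53% after thinning and cells without one in 9.32%. Reads of the 2 genes could not be told apart here, and Rag2 levels are uncertain for that reason in every gate, the lymphoid gate included, where B230118H07Rik was at 32.1 CPM.

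**Figure D2:**
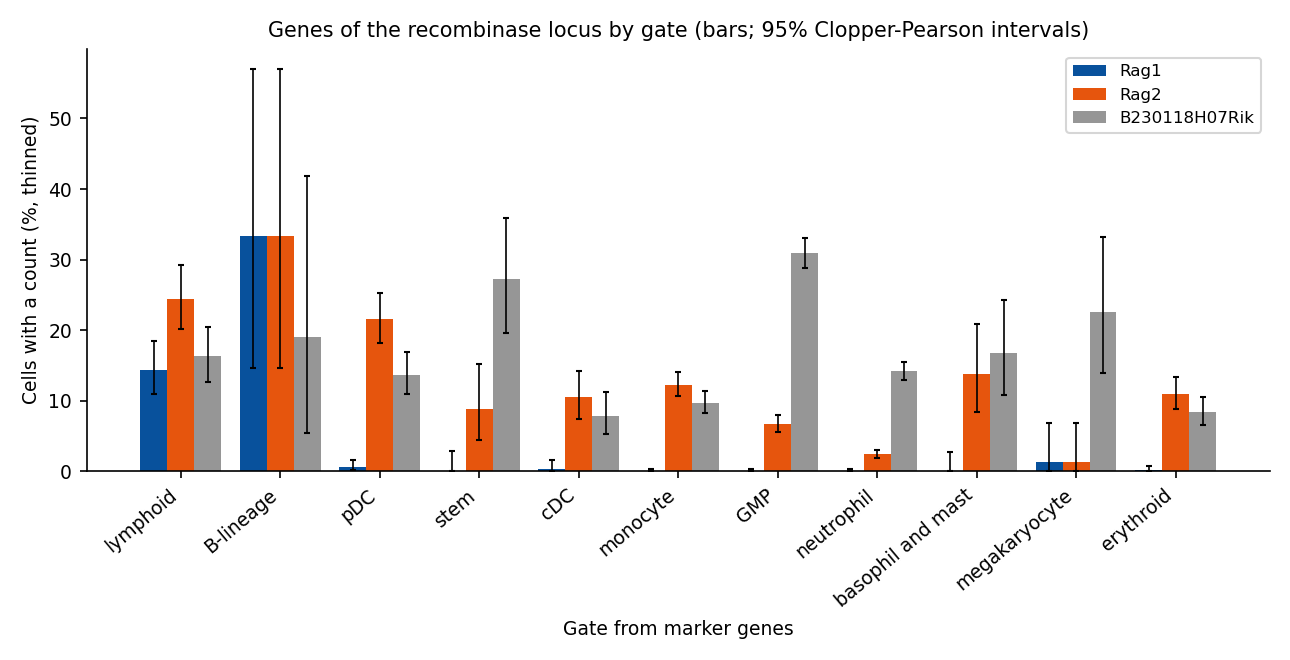
Share of cells (%, thinned to 8800 counts) with a count of Rag1, Rag2 or the overlapping gene B230118H07Rik in each gate, with 95% Clopper-Pearson intervals. Rag1 is at 14.4% in the lymphoid and 33.3% in the B-lineage gate and at 0.125% in the erythroid gate, whereas Rag2 is at 10.9% in the erythroid gate.

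The 2 commitment factors were seen at more than a single count in small numbers of cells. Ebf1 had a count in 501 cells, but 448 of these held exactly 1, and the thinned share was 0.878% in the erythroid and 1.83% in the neutrophil gate. Its level was 129 CPM (96.9 to 169) in the B-lineage gate, 7.16 CPM in the lymphoid gate and 2.08 CPM in the neutrophil gate. At least 3 Ebf1 counts were found in 27 cells: 7 of the B-lineage gate, 6 of the lymphoid gate, 10 without a gate and 4 elsewhere. In the other named gates of over 30 cells but the lymphoid, the intervals of the thinned share overlapped that of the erythroid gate (0.354 to 1.80). Overlap is no test that the shares are equal. By level the neutrophil gate (1.76 to 2.45 CPM) lay above the erythroid gate (0.919 to 1.70 CPM).

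Pax5, which fixes B-cell identity, was scarcer. It was counted 172 times in 63 cells, at 127 CPM (94.8 to 166) in the B-lineage gate, 3.31 CPM in the lymphoid gate and at most 0.333 CPM in each other named gate of over 30 cells. The B-lineage value joined 158 CPM in A963 and 61.0 CPM in A965, where 1 cell held the 8 counts. Of 21 B-lineage-gate cells 10 held Pax5, against 7 of 368 in the lymphoid gate. Among the 30 cells with at least 2 Pax5 counts, 21 had as many of Cd79a (70.0%), 19 of Dntt (63.3%) and 16 of Rag1 (53.3%).

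The surrogate light chain genes were concentrated in few cells, Igll1 more than Vpreb1. Igll1 was at 695 CPM (617 to 781) in the B-lineage gate, in 12 of 21 cells, and at 0.265 CPM in the lymphoid gate, in 1 of 368 cells. The 20 highest cells held 80.6% of its 679 counts, and 1 cell alone had 88. Within the B-lineage gate Igll1 was at 901 CPM in the 14 cells of A963 and 259 CPM in the 7 of A965, and at 547 CPM over both without the cell of 88 counts. Vpreb1 was at 464 CPM (400 to 534) in the B-lineage gate, also in 12 of 21 cells, and at 3.71 CPM in the lymphoid gate. The 20 highest cells held 47.2% of the 817 Vpreb1 counts.

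Both genes also had low counts in the GMP gate, the myeloid progenitors marked by Mpo and Elane. Vpreb1 was seen in 80 of its 1764 cells (4.54%, at most 7 counts) and Igll1 in 48 (2.72%, at most 5 counts). After thinning the shares were 1.64% (1.10 to 2.35) and 0.794% (0.435 to 1.33), against 0.753% (0.277 to 1.63) and 0 of 797 in the erythroid gate, which for Igll1 allows up to 0.376%. Both genes were seen in 3 cells, where 4.54% and 2.72% of the gate had the 1 and the other. None of the 80 or the 48 cells held a count of Pax5, Rag1 or Cd79a. Over the whole gate these were seen in 0.397%, 0.283% and 0.624% of cells, so 0 is near that background. Ebf1 was in 4 of the 80 and 2 of the 48 cells, against 5.05% of the gate, and Dntt in 3 and 2, against 4.25%. Their Mpo level was 6121 and 5842 CPM, against 5542 CPM over the whole gate, and their median totals were 45788 and 51239.5 counts, against 38120. The close copy Vpreb2 had 1 count in the GMP gate where Vpreb1 had 167, but 87 counts in the B-lineage gate where Vpreb1 had 190.

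Cd79a and Cd79b, the paired signalling chains of the B-cell receptor, differed widely in range. Cd79a was at 517 CPM (450 to 592) in the B-lineage gate and 16.8 CPM in the lymphoid gate, with thinned shares of 71.4% and 4.35%. It stayed at or under 2.90 CPM in every other named gate of over 30 cells. Cd79b was at 268 CPM (221 to 324) in the B-lineage gate but also at 40.9 in the pDC, 39.1 in the lymphoid, 29.7 in the GMP and 24.0 in the monocyte gate. Its thinned share was 17.1% in the GMP and 13.4% in the monocyte gate, against 1.13% in the erythroid and 1.86% in the neutrophil gate, a gap far beyond the counting error. In the order of levels, the A963 and A965 values of the cDC, GMP, megakaryocyte, stem and monocyte gates each overlapped those of the gate above. The pDC (42.1 and 40.7 CPM) and lymphoid values (37.3 and 40.3) lay just apart. Their counting intervals over all hashtags overlapped (36.9 to 45.3 and 34.8 to 43.8), so their order is not settled.

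Ighm had the widest range. It was seen, after thinning, in 21 of 21 B-lineage-gate cells, 99.1% of the pDC gate, 92.9% of the lymphoid gate, 79.7% of the monocyte gate and 79.6% of the cDC gate. The share was 44.6% in the GMP, 18.4% in the stem, 17.2% in the neutrophil and 6.78% in the erythroid gate. By level the order was pDC (784 CPM), lymphoid (582), cDC (295), monocyte (274), GMP (104) and stem (36.6) among gates of at least 30 cells in both large hashtags. Only the cDC and monocyte values overlapped between hashtags. One A965 cell of the plasma gate held 2345 Ighm counts, 18.5% of its 12650, with 4038 of Igkc and 303 of Jchain, the gene of the chain that joins antibody units; the next highest cell had 56.

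Most cells of high Rag1 held no Igll1 count, but Igll1 was rare in all cells. Among the 88 cells with at least 2 Rag1 counts, 9 (10.2%) had at least 2 Igll1 counts, against 0.589% of all cells. Of the 62 cells with as many Igll1 counts, 14.5% had as many of Rag1, against 0.836% of all cells. The 2 genes thus shared cells more often than their shares of all cells. At least 5 Rag1 counts were found in 39 cells, of which 35 had no Igll1 count and 4 had at least 5. At least 5 Igll1 counts were found in 20 cells, of which 11 had no Rag1 count, 5 had 1 to 4 and 4 had at least 5. The 35 and the other 16 were then described by genes that did not choose them.

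In the 35 cells of high Rag1 alone, Dntt was present in 35 with a median of 34 counts, Flt3 in 26, Cd27 in 22 and Ly6d, a marker of B-biased lymphoid progenitors, in 29. In the 16 cells of high Igll1 alone, Dntt was present in 12 with a median of 9 counts, Flt3 in 5, Cd27 in 2 and Ly6d in 8. Vpreb1 went the other way: 9 of 35 cells against 14 of 16, with medians of 0 and 22 counts. Lef1 was in 0 of 35 and 9 of 16, and Id3 in 2 of 35 and 8 of 16. Cd79a was in 26 of 35 and 13 of 16, and Ebf1 in 26 and 13, so these 2 were common to both sets. Total counts were higher in the second set (medians 14318 and 21703.5). The 16 include 2 deep GMP-gate cells, of 85049 and 70086 total counts, with 5 Igll1 counts each and 435 and 417 of Mpo. Neither had a count of Dntt, Ebf1, Pax5, Vpreb1 or Cd79a, and both enter the shares of the 16. After thinning, Flt3 was in 26 and 2 cells and Vpreb1 in 8 and 14.

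The sets also differed in 6 proliferation genes, Mki67, Top2a, Ccnb1, Cdk1, Birc5 and Ube2c. Their summed counts had a median of 0.747 per 10000 in the 35 cells of high Rag1 (0 to 48.5) and of 15.3 in the 16 of high Igll1 (2.47 to 62.2). After thinning, 6 of 35 and 14 of 16 cells had at least 5 counts of these genes, against 66.8% of all cells and 39.9% of the lymphoid gate. The ranges overlapped. By gate, the 35 comprised 16 lymphoid, 4 B-lineage, 12 ungated and 3 other cells, and the 16 comprised 8 B-lineage, 6 ungated and 2 GMP cells. By hashtag, 19 and 16 of the 35 were A963 and A965, and 11 and 4 of the 16, with 1 of A962.

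**Figure D3:**
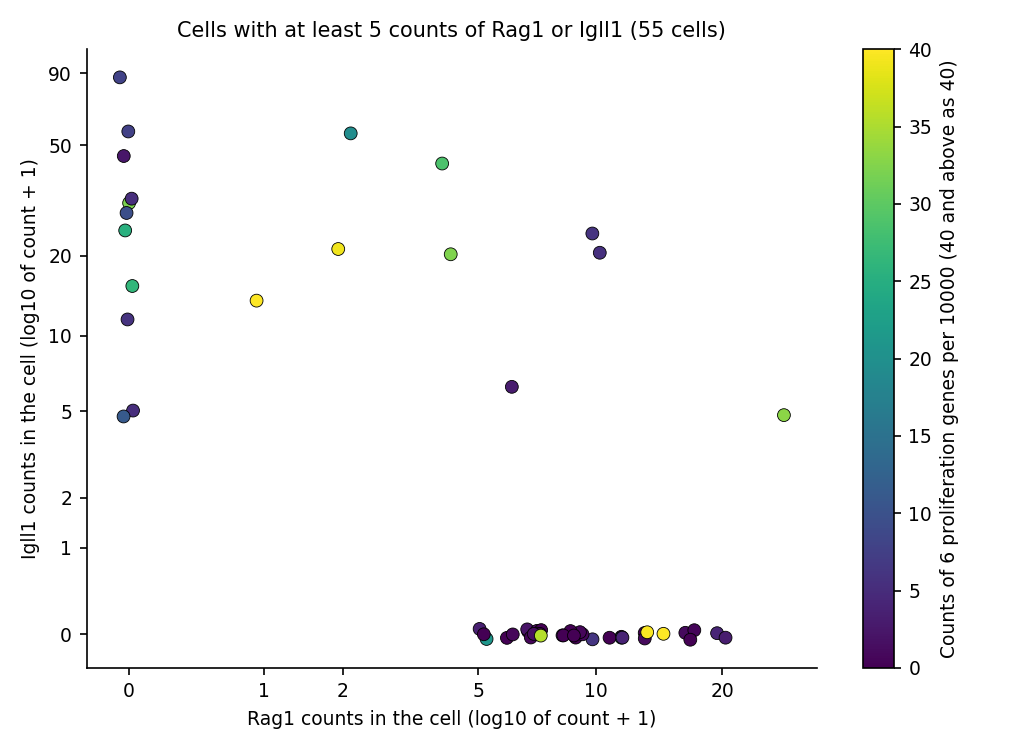
Counts of Rag1 (x axis) and Igll1 (y axis), both as log10 of count + 1, in the 55 cells with at least 5 counts of either; points are jittered and coloured by the summed proliferation genes per 10000 counts. Of 39 cells with at least 5 Rag1 counts, 35 lie on the line of 0 Igll1 counts. Over all cells, 0.940% had an Igll1 count.

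A965 and A963 could be compared over all their cells. With 10 CPM added to each value, 0 of the 10 genes differed by 1.5-fold or more, where 1.48% of 25661 genes did in either direction (0.624% higher and 0.861% lower). Of the 4 that reached 10 CPM in either hashtag, 0 did, against 4.47% of such genes. With 1 CPM added, 3 of 10 were lower in A965 (Vpreb1, Igll1 and Cd79a), where 5.01% of genes passed in either direction and 3.02% were lower. The median log2 ratio of the 10 with 10 CPM added was -0.08, against -0.00 over all genes. The 10 CPM are large beside most of these genes, so ratios of the summed counts themselves follow.

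Igll1 was at 3.72 CPM (440 counts) in A963 and 1.10 CPM (193 counts) in A965, 3.39-fold lower (2.86 to 4.04). Pax5 went from 0.855 to 0.381 CPM, 2.24-fold lower (1.63 to 3.10), and Cd79a from 4.29 to 1.96 CPM, 2.19-fold lower (1.91 to 2.52). Vpreb1 was 1.85-fold (1.60 to 2.13) and Rag1 1.43-fold lower (1.21 to 1.69). These were the genes whose counts sat in few cells, and the intervals take no account of such clumping. Igll1 was in 34 A963 cells (0.721%) and 63 A965 cells (1.13%), or 0.445% and 0.377% after thinning. Rag1 was in 1.36% of A963 and 1.35% of A965 cells and Vpreb1 in 2.29% and 2.07%. Cd79a was in 1.19% and 0.934% and Pax5 in 0.679% and 0.539%. Dntt (65.0 and 63.0 CPM, ratio 0.969), Cd79b (21.4 and 20.9 CPM, ratio 0.981) and Ighm (169 and 160 CPM, ratio 0.945) stood nearly level, with Rag2 at 0.802 and Ebf1 at 0.848. Without the 1 cell of highest Ighm, the Ighm ratio was 0.867.

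Leaving out the B-lineage and plasma gates, which no member chose, left Igll1, Cd79a, Vpreb1 and Pax5 lower in A965. The ratio was then 0.494 (0.394 to 0.618) for Igll1, 0.624 (0.530 to 0.734) for Cd79a, 0.697 (0.590 to 0.824) for Vpreb1 and 0.671 (0.452 to 0.997) for Pax5. For Rag1 it was 0.926 (0.770 to 1.11), an interval that includes 1. Part of the counts lay in cells outside both gates. Among all cells, 28 held at least 2 counts of 3 or more of Ebf1, Pax5, Vpreb1, Igll1 and Cd79a, and 20 of them were A963, 7 A965 and 1 A962. Leaving these out, which must raise the ratios of the genes that picked them, moved the ratio of Pax5 to 1.09 (0.661 to 1.83), of Vpreb1 to 0.946, of Cd79a to 0.953 and of Rag1 to 0.916. The Igll1 ratio turned to 1.76 (1.23 to 2.56), from 43 and 113 counts. The GMP gate, which held 0 of the 28 cells, gave 18 and 70 of these counts, and the neutrophil gate 0 and 11. In the GMP gate the Igll1 ratio was 1.81 (1.06 to 3.22), with thinned shares of 0.593% in A963 and 0.963% in A965. The share of cells that no member chose is that of the B-lineage gate, which held 0.297% (0.162 to 0.498) of the A963 and 0.126% (0.0506 to 0.259) of the A965 cells. The ratio of the shares was 0.424 with an interval of 0.145 to 1.12, so a difference in the share of such cells was not detectable at this number of cells.

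**Figure D4:**
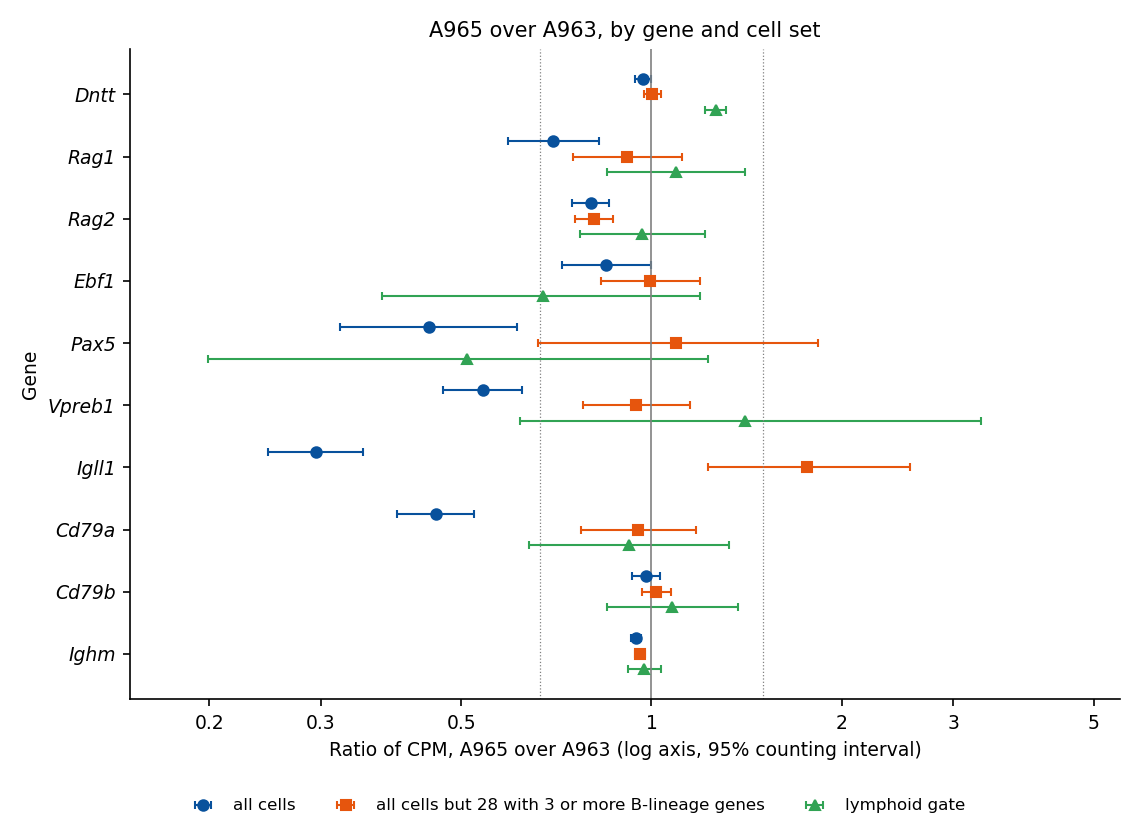
Ratio of CPM in A965 over A963 for each gene (log axis; points with 95% counting intervals; dotted lines at 1.5-fold) over all cells, over all cells but 28 with 3 or more B-lineage genes, and in the lymphoid gate. Igll1, Pax5, Cd79a and Vpreb1 lie at 0.295 to 0.541 over all cells, and Dntt at 1.26 in the lymphoid gate; Igll1 has no point there because A965 had no count.

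Within the lymphoid gate 0 of 10 genes passed 1.5-fold with 10 CPM added, where 1.73% of 20368 genes did (0.717% higher and 1.02% lower). Of the 6 that reached 10 CPM, 0 did, against 3.65%. With 1 CPM added, 2 of 10 (Pax5, 16 and 9 counts, and Igll1, 2 and 0 counts) were lower in A965, where 12.8% of genes were lower and 11.3% higher. Dntt was at 1288 CPM in A963 and 1628 CPM in A965, a ratio of 1.26 (1.22 to 1.31), and its thinned share was 79.8% (73.5 to 85.2) and 86.7% (80.6 to 91.5). The intervals of those shares overlap. The gate itself was a smaller part of A965, 166 of 5567 against 198 of 4716 cells, a ratio of 0.710 (0.574 to 0.877). Rag1 (33.4 and 36.5 CPM), Cd79a (17.7 and 16.3), Cd79b (37.3 and 40.3) and Ighm (588 and 573) had intervals of the ratio that include 1. Erythroid-gate cells were 13.2% of A963 and 2.93% of A965, which enters every share of all cells, and the part of this in the results was not tested.

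Dntt was also higher in A965 in the pDC and stem gates. In the pDC gate it was at 63.7 CPM in A963 and 109 CPM in A965, a ratio of 1.72 (1.47 to 2.00), with thinned shares of 23.3% (18.4 to 28.8) and 29.2% (23.7 to 35.2). In the stem gate it was at 15.3 and 65.0 CPM, a ratio of 4.25 (2.56 to 7.40) from 19 and 86 counts, with thinned shares of 8 of 68 and 12 of 57 cells. Leaving out the highest stem-gate cell of A963 (10 counts) gave a ratio of 8.90, and leaving out that of A965 (23 counts) 3.15. The share intervals overlap in both gates. In the erythroid gate, which shows the background, Dntt levels were 4.10 CPM for A963 and 9.64 CPM for A965, giving a ratio of 2.35 from 111 and 70 counts. One A965 cell held 61 of the 70 counts, and the ratio was 0.306 without it. Without the highest cell of each hashtag the ratio was 0.538 (0.235 to 1.09). In the cDC gate 58 of the 86 counts of A965 lay in 1 cell. In the GMP and monocyte gates, where few cells had a count, the ratios were 0.623 and 0.477. They were 0.912 and 0.781 without the highest A963 cell of each gate, and 0.396 and 0.282 without the highest A965 cell. Without the highest cell of each hashtag they were 0.580 (0.412 to 0.819) and 0.461 (0.305 to 0.694).

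Ighm was lower in A965 in the neutrophil and GMP gates. The ratio was 0.360 (0.330 to 0.392) in the neutrophil gate, from 52.7 to 19.0 CPM, and 0.647 (0.617 to 0.678) in the GMP gate, from 134 to 86.7 CPM. Thinned shares went from 26.9% to 9.68% of neutrophil-gate cells and from 52.8% to 38.2% of GMP-gate cells. It was 0.908 in the monocyte, 0.907 in the pDC and 0.974 in the lymphoid gate. In the erythroid gate Ighm was at 12.9 CPM in A963 and 16.7 CPM in A965, and in the megakaryocyte gate at 5.71 and 39.5 CPM, from 6 and 39 counts, 23 of the 39 in 1 cell. Cd79b was likewise lower in A965 in the neutrophil (0.433), monocyte (0.627) and GMP gates (0.797), while its ratio was 1.08 in the lymphoid and 1.83 in the cDC gate.

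The 3 small hashtags held 68 to 104 cells each. Dntt had 10 counts in 2 cells of A961, 82 counts in 7 cells of A962 (26.4 CPM) and none in the 73 cells of A964, which allows up to 4.11% of cells. Rag1 was at 0 in each of the 3. In A962, 1 ungated cell carried 45 of the 46 Igll1 and 32 of the 33 Vpreb1 counts, along with 11 of Ebf1, 4 of Pax5 and 22 of Vpreb3, and it sets the A962 values of these genes. Ighm was seen in 83.8% of A961 cells, in 74.0% for A962 and in 78.1% for A964. The shares were 60.1% in A963 and 56.4% in A965. Monocyte-gate cells, in which Ighm is common, made up 55.9%, 17.3% and 50.7% of the 3 small hashtags, against 10.9% and 15.2%. Cd79b was at 28.5 CPM in A961, 29.7 CPM in A962 and 14.4 CPM in A964.

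**Figure D5:**
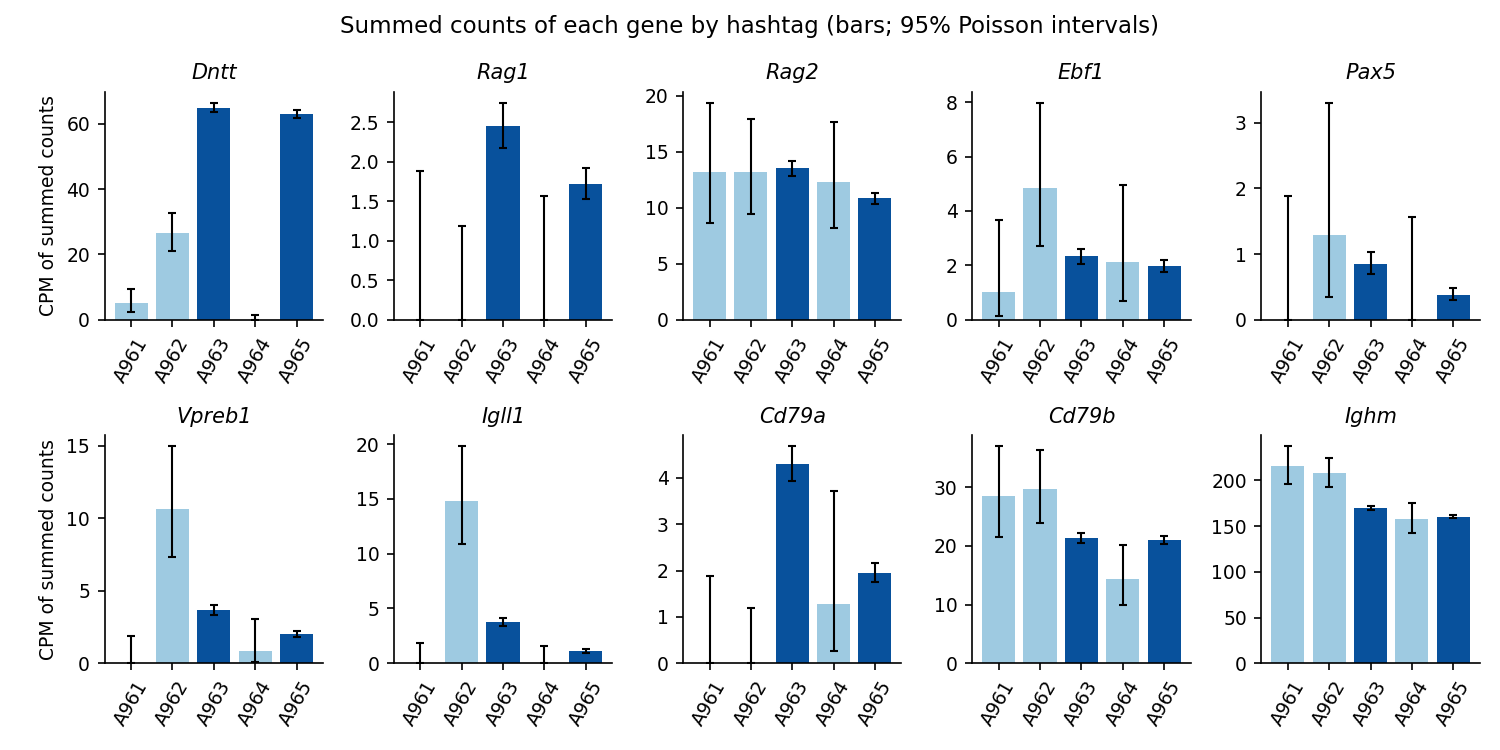
CPM of the summed counts of each gene in each hashtag (bars, each panel on its own axis from 0) with 95% Poisson intervals; dark bars are the 2 hashtags with 4716 and 5567 cells. A962 stands highest for Vpreb1 and Igll1 through 1 cell, and Rag1 is at 0 in A961, A962 and A964.

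A list of 48 further early lymphoid and B-cell genes was set beside the 10. Over all cells 1 was higher in A965 and 2 lower by 1.5-fold with 10 CPM added, where 0.624% and 0.861% of all genes were, with a median log2 ratio of -0.07 against -0.00. The higher gene was Igkc, the kappa light chain constant region, of which 2 plasma-gate cells of A965 held 4038 and 5252 counts. The lower ones were Ly6d, 1.76-fold (1.73 to 1.80), and Cd24a, 1.71-fold (1.69 to 1.73). In the lymphoid gate 1 of 47 (again Igkc) was higher and 5 lower, where 0.717% and 1.02% of all genes were, with a median of -0.08 against -0.01 over all genes. The lower genes were Blnk, Ly6d, Blk, a kinase of the receptor pathway (46.6 to 14.5 CPM, 3.21-fold, 2.36 to 4.41), Spib (10.1 to 1.53 CPM, 6.61-fold, 2.76 to 19.2) and Tcf12 (43.5 to 22.7 CPM, 1.92-fold, 1.47 to 2.52). Of the 48 genes, 17 are gate markers, so their levels within gates are in part set by the gates.

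End-joining enzymes repair the cuts that Rag proteins make. The list of 21 genes set beside the 10 for this step also holds Hmgb1, Hmgb2, Cdkn1b, Ccna2 and Skp2, which are not repair enzymes. Of the 21 listed, 20 were in the table. Over all cells or in the lymphoid gate, 0 of 20 passed 1.5-fold with 10 CPM added, where 1.48% and 1.73% of all genes did. Their median log2 ratios were -0.08 and -0.07, against -0.00 and -0.01 over all genes, and a count of 0 among 20 is near that background. Xrcc6, which encodes the Ku70 end-binding protein, was at 165 CPM in the lymphoid gate, 28.8 CPM in the GMP gate and 11.4 CPM in the neutrophil gate. Poll, a gap-filling polymerase related to terminal transferase, was at 17.5 CPM in the lymphoid, 14.6 in the B-lineage and 13.2 in the stem gate. It was at 9.65 CPM in the GMP, 6.13 in the monocyte and 3.79 in the pDC gate. Lig4, the ligase of the pathway, was at 0.928 CPM in the lymphoid gate and, in 2 of 21 cells, at 19.5 CPM in the B-lineage gate. It was at 0.390 CPM in the stem gate and at 1.45 to 3.01 CPM in the pDC, monocyte, GMP, erythroid and neutrophil gates.

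Genes whose levels followed each member across gates were ranked by Pearson's r of log2(CPM + 10) over 20 groups, 10 gates by 2 hashtags, which share 1 library. The 21 cells of the B-lineage gate were too few to enter, so the likeness holds outside the gate in which Rag1, Ebf1, Vpreb1 and Cd79a were highest among gates of over 20 cells. Dntt was followed by Kcng1 (0.967), Myl4 (0.956) and Sstr2 (0.952), of which Myl4 was at 85.2 CPM in the lymphoid and 26.5 CPM in the pDC gate. Rag1 was followed by Pygm (0.963), Tmem108 (0.913) and Sstr2 (0.913), and Cd79a by Sstr2 (0.971), Cd247 (0.969) and Depp1 (0.968). Sstr2, a somatostatin receptor gene, also followed Ebf1 (0.887), after Tox (0.934) and Cd247 (0.911); it was at 12.6 CPM in the lymphoid gate and 1.78 CPM in the pDC gate. Ighm was followed by Irf8, Mpeg1 (0.945) and Ifnar2 (0.936), and Irf8, a factor of dendritic and monocyte cells, was at 2673 CPM in the pDC and 718 CPM in the lymphoid gate. For Cd79b the nearest were Tmem59 (0.938), Eml4 (0.937) and Macroh2a1 (0.886), for Rag2 Cnn3 (0.890), Apcdd1 (0.875) and Zfp426 (0.875), and for Vpreb1 Creld1 (0.879), Cyb5d1 (0.833) and Coil (0.805). Vpreb1 lay between 0 and 8.57 CPM in these groups, under the 10 CPM added. Its top value came from 9 counts in 3 of 43 megakaryocyte-gate cells of A963. Outside the lymphoid gate Rag1, Ebf1 and Cd79a were at most 9.12, 3.22 and 2.97 CPM in any group. Their r thus rests largely on the 2 lymphoid groups. Pax5 and Igll1 had counts in fewer than 100 cells and were not ranked.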

How the data were processed

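Single-cell RNA-seq of sorted mouse bone marrow progenitors used BD Rhapsody capture and the TAS-Seq amplification method, as the labels' protocols say. The authors deposited a table of whole-number counts in which each cell's name carries its hashtag, per the file headers. Whether the counts are of molecules or reads, the aligner, annotation and use of strand are not given in the sources used here. Values of 2 were 54.7% as many as values of 1. The submitters' processing notes name GRCm38, R 4.2.1 and Seurat 4.2.0 but no use for each.

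Of 10731 cells, 190 named doublets by the authors and 6 without a hashtag were set aside, and 7 with under 500 genes or over 20% mitochondrial counts were removed. Cell totals ran from 8822 to 140994. Summed counts were 1965440 in A961, 3100547 in A962, 118142775 in A963, 2360420 in A964 and 175876760 in A965. Scrublet (scanpy 1.11.5) called 223 cells, which stayed in.

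A gate score was the mean, over a class's markers, of z-scored log2(1 + counts per 10000), each capped at 5. The top class was taken at a score of at least 0.5, a lead of at least 0.25 and at least 3 markers seen. No cell reached the T-cell gate, 6 reached the NK gate and 5 the plasma gate, and the marker Gzma was missing. CPM were computed from counts added up over the cells of a group. CPM have exact Poisson, shares Clopper-Pearson and ratios exact conditional binomial intervals (scipy 1.17.1). The limit that a count of 0 allows is 3 cells of the total. Genes named besides the 10 are those with the 3 largest ratios each way in 2 lists, with at least 10 CPM, and the 3 most similar in pattern; the other names were chosen after their values were seen. The 10 genes, lists and markers were chosen with earlier results of these data known.

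The ratio step was tested on simulated counts with 100 genes changed 2-fold and 100 changed 4-fold. For A965 over A963 over all cells (25650 genes), 99 and 100 were called in the right direction and 97.0% and 95.0% of intervals held the truth. In the lymphoid gate (19282 genes) the figures were 91 and 100, and 93.0% and 94.0%. The simulated counts were Poisson draws, the same error that the intervals assume. The changed genes were taken from levels above those of Ebf1, Pax5, Vpreb1, Igll1 and Cd79a and, over all cells, also above those of Rag1 and Rag2. How the intervals hold for such rare genes, or for counts clumped in few cells, was not tested. Alternatives were another scaling, thinning, Scrublet calls left out, the most abundant transcript left out, other added CPM, a filter on low values and stricter or looser gates. Values without single cells of high counts were added after seeing the data. Positions are 1-based from GENCODE M21.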

Additional observations from a re-analysis of the deposited data

Results flagged for a closer look

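The 190 cells that the authors named doublets were outside every comparison, and each of the 10 genes was counted in them above the 3 counts that a total of 0 allows. Dntt had 151 counts in 24 of these cells, or 26.5 CPM against 62.5 CPM in cells of a single hashtag. Rag1 had 10 counts in 2 cells and Rag2 58 counts in 41. Ebf1 had 16 counts in 11 cells and Pax5 6 counts in 2. Vpreb1 had 37 counts in 5 cells, Igll1 41 counts in 4 and Cd79a 34 counts in 6. Cd79b had 117 counts in 35 cells and Ighm 887 counts in 121. Igll1 was thus at 7.19 CPM against 2.25 CPM in cells of a single hashtag, from 4 cells, and Ighm at 156 CPM against 165 CPM.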

How the results depend on the processing

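The count of genes past 1.5-fold between A965 and A963 stayed at 0 of 10 over all cells and in the lymphoid gate under another scaling, thinning, removal of Scrublet calls or of the most abundant transcript, 50 CPM added and, in the gate, a stricter or looser margin (9 genes had counts in the gate after thinning). With a filter at 10 CPM, 4 and 6 of the 10 could be tested and 0 passed. With 1 CPM added it was 3 of 10 over all cells (Vpreb1, Igll1, Cd79a) and 2 of 10 in the lymphoid gate (Pax5, Igll1), where the background was 24.1%. Without the cell of highest Ighm, an alternative chosen after seeing the data, the count was 0. The share of lymphoid-gate cells with Dntt was 82.9% and became 78.0% where 2 counts were asked for; 5 other settings gave 79.4% to 85.9%. The Dntt ratio in the lymphoid gate, 1.26, was 1.34 with median-of-ratios scaling, 1.42 after thinning, 1.49 with the stricter and 1.36 with the looser gate; the cause was not tested. It was above 1 under each of the 6 alternatives run. No paired analysis was possible because each hashtag occurs once and carries no replicate number. Genes under about 1 CPM, such as Pax5, were counted in few cells (63 for Pax5), which limits their ratios.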
